A study of Homo sapiens with 2 samples.

Results

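The genes described here code for the catalytic, scaffold and regulatory subunits of the PPP family of serine/threonine phosphatases. They were taken from a list of RNA regions enriched with YTHDF3, a cytoplasmic reader of N6-methyladenosine (m6A). The members are every listed region whose gene name begins with PPP, a digit from 1 to 6 and then C (catalytic) or R (regulatory), antisense genes excluded. One further gene with such a name is not reported here. This gave 72 regions (peaks) in 40 genes, out of 18466 peaks in 9268 genes. The reference annotation held 76 protein-coding genes with such names, so 36 of them had no listed peak.

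The peaks came from KYSE30, a cell line from a human squamous carcinoma of the esophagus, kept untreated in 10% serum. RNA recovered with an antibody to YTHDF3 (RNA immunoprecipitation, RIP) was sequenced as 1 library, and input RNA as 1 more. Neither has a replicate, so no value has an error between samples, and all values describe these 2 libraries. No library came from a control antibody, so binding by YTHDF3 cannot be told apart from nonspecific recovery. Of 8 markers of squamous epithelium, 5 had a listed peak, among them TP63, KRT5 and KRT14, while KRT6A, PKP1 and S100A2 had none. Of 12 markers of immune, stromal, endothelial, liver and nerve cells, 3 had one, namely CD14, CDH5 and SYT1. Their fold enrichments, 7.53, 10.0 and 11.3, lay above the largest values of the 5 squamous markers, 2.24 to 5.86. Of these 3 markers, however, only 1 had a peak with an adjusted p under 0.05, whereas all 5 squamous markers did. Over all protein-coding genes, 40.0% had a listed peak. A peak list does not measure which genes the cells express, and fewer transcripts cannot be told apart from weaker recovery of each transcript. The fold enrichment of a peak (RIP over input) and its p and adjusted p are the authors' own values.

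PPP phosphatases remove phosphate from serine and threonine. A small set of catalytic subunits (of PP1, PP2A, calcineurin, PP4, PP5 and PP6) does the chemistry. Most of the choice of substrate and place in the cell comes from a much larger set of regulatory subunits that bind them. PP1 and PP2A oppose the kinases of mitosis, at kinetochores and in mitotic exit. YTHDF proteins bind m6A in messenger RNA, which is most frequent near stop codons and in long exons.

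Of the 40 genes with a peak, 37 were scaffold or regulatory and 3 were catalytic. Of the 76 PPP genes, 40 had a peak, or 52.6% (40.8 to 64.2, exact Clopper-Pearson 95% interval, counting error only). The share was 40.0% over all 19974 protein-coding genes of chromosomes 1 to 22 and X. Peaks at an adjusted p under 0.05 were listed for 34 PPP genes (44.7%), against 34.0% of all genes. A peak among the 10% with the smallest p was listed for 12 of them (15.8%), against 7.98%. When peaks below the list's median fold enrichment, 5.02, were set aside, 25 members (32.9%) and 28.7% of all genes had one. Over the 40 genes the median best fold enrichment was 6.27, below the 7.53 over all genes with a peak. No test was made of any of these shares or medians against the background.

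**Figure D1:**
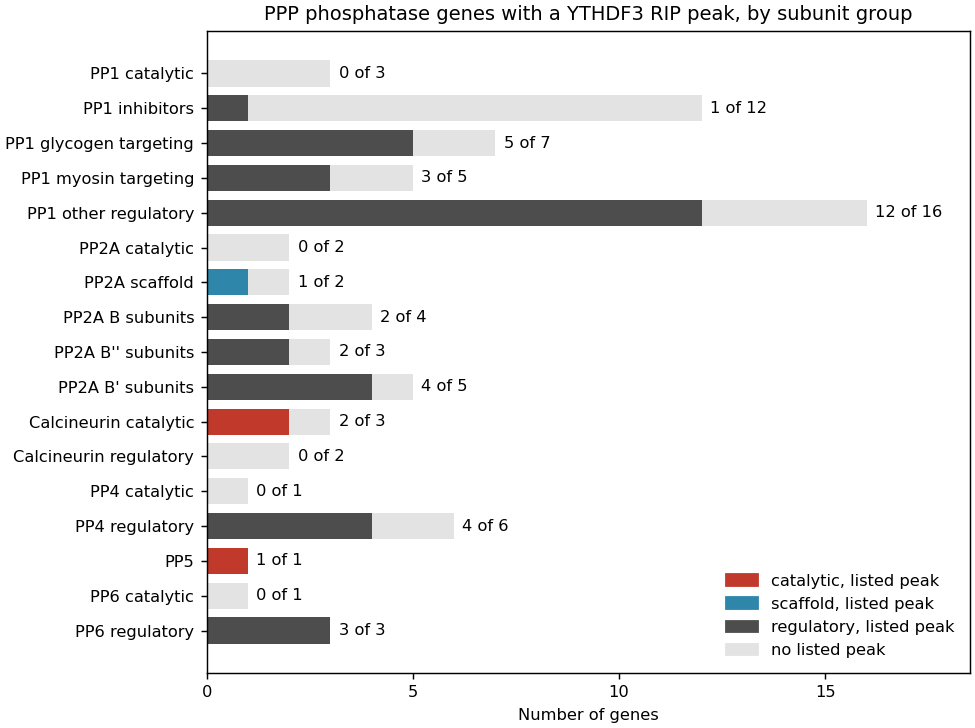
Number of PPP genes (x axis) in each subunit group, coloured by class where a peak was listed and grey where none was. The 3 PP1 and 2 PP2A catalytic genes had no listed peak, and 12 of the 16 PP1 genes grouped as other regulatory subunits had one. Over all protein-coding genes, 40.0% had one.

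Genes of over 10000 bases more often had a peak than shorter ones, over all genes and among the members. Among genes of up to 10000 bases, 5 of 18 PPP genes had a peak (27.8%), against 25.4% of all protein-coding genes of that size. From there to 30000 bases, 10 of 15 had one (66.7%), against 40.9%. For genes up to 100000 bases the count was 15 of 26 (57.7%), against 48.1%, and for larger genes 10 of 17 (58.8%), against 50.1%. The members thus lay near the background among the smallest genes and above it in the other 3 size classes, on few genes each. Gene size here is genomic, introns included, and transcript length was not used.

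Of the 11 catalytic subunit genes, 3 had a peak (27.3%, exact 95% interval 6.02 to 61.0), beside 37 of the 65 scaffold and regulatory genes (56.9%, 44.0 to 69.2) and 40.0% of all genes. The catalytic interval includes the share over all genes. The PP1 genes PPP1CA, PPP1CB and PPP1CC were without one, as were the PP2A genes PPP2CA and PPP2CB, and also PPP3CC, PPP4C and PPP6C. PPP5C, the phosphatase that binds the chaperone HSP90, had a single peak, enriched 3.92-fold (adjusted p 1.26e-35). That region, chr19:46347053-46390733, spanned 99.4% of the gene. PPP3CA, which codes for the alpha catalytic subunit of the calcium-activated phosphatase calcineurin, had 2 peaks. They lay at opposite ends of the gene, 321602 bases apart, with fold enrichments of 4.39 at the 5' end and 2.72 at the 3' end. Neither reached an adjusted p under 0.05 (0.0631 and 0.0871). PPP3CB, the beta subunit, had 2 neighbouring peaks near its 3' end, with fold enrichments of 2.56 and 1.92 and adjusted p of 0.000105 and 0.0933. No catalytic gene reached the list's median fold enrichment, and none was among the 10% of peaks with the smallest p.

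The PP2A scaffold genes had 1 peak between them, and it did not pass an adjusted p of 0.05. PPP2R1A, the main scaffold subunit and the gene given as the mark of this family, had no listed peak. PPP2R1B, its paralog, had 1 peak of 539 bases inside the gene, at chr11:111740775-111741313, enriched 5.02-fold (adjusted p 0.164). The family is therefore described here by its rule and not by PPP2R1A.

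The 2 largest fold enrichments were in PP1 regulatory genes, and the third was in the PP2A gene PPP2R2C. Of 40 PP1 regulatory genes 21 had a peak (52.5%), with a median best fold enrichment of 7.53. PPP1R15B led all PPP genes. It codes for CReP, the constitutive subunit that brings PP1 to the translation initiation factor eIF2 and reverses its phosphorylation. Its 2 peaks met at a gap of 88 bases. The region nearer the 3' end, chr1:204403835-204405209, had a fold enrichment of 48.9 with an adjusted p of 3.98e-12. The region nearer the 5' end, chr1:204405298-204411791, had a fold enrichment of 7.53 with an adjusted p of 1e-301. The larger fold and the smaller p thus belonged to different peaks of the gene. The second region ended 26 bases past the annotated transcription start. The 30 transcribed bases around that edge are shown because they place it beside the start, with the 24 bases within the peak in capitals (chr1:204411768-204411797, minus strand, GRCh38.p14).
PPP1R15B: cgcaccAGCCGGCCTACCCAGTCCTTCCGG

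PPP1R26, a PP1-binding gene, came next, with a fold enrichment of 35.1 (adjusted p 1.66e-09) in chr9:135479079-135483453 and of 12.5 (adjusted p 1e-167) in chr9:135483969-135488833. The 2 regions covered 94.0% of the gene. PPP1R13B, which codes for the p53-binding protein ASPP1, had a fold enrichment of 20.1 in 6257 bases near its 3' end (adjusted p 1.58e-11). A second peak of 106871 bases, nearer the 5' end, stood at 7.53 (adjusted p 1.38e-08). PPP1R9A, the gene of the actin-binding neuronal scaffold neurabin, reached 18.8 over 383729 bases, or 98.6% of the gene, with an adjusted p of 1e-65. That was the widest peak of the family. Its paralog PPP1R9B (spinophilin) had 4 peaks. From the 3' end they stood at 3.14 (adjusted p 0.0776), 3.76 (1.86e-05), 2.93 (1.58e-53) and 1.88 (0.124). A peak of AC002401.1 on the other strand, with a fold enrichment of 4.2, overlapped 10591 bases of the PPP1R9B peak at 2.93. The largest listed fold enrichments of PPP1R9A and PPP1R9B were thus 18.8 and 3.76, with no error known for either. Their peaks spanned 98.6% and 95.9% of the genomic gene, introns included.

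PP1 genes of glycogen metabolism had a peak in 5 of 7 cases (71.4%, exact 95% interval 29.0 to 96.3). The interval includes the 40.0% of all protein-coding genes. With an adjusted p under 0.05 the count was 4 of 7. The subunits of this group bring PP1 to glycogen, where it activates glycogen synthase. PPP1R3B, the subunit best known from liver, reached 18.8 (adjusted p 1e-13) in 1 peak and 6.27 (adjusted p 0.00617) in the other, nearer the 3' end. PPP1R3G reached 12.5 and 11.3 in its 2 peaks (adjusted p 0.00107 and 0.00182), and PPP1R3F 10.0 with an adjusted p of 0.0776. PPP1R3D stood at 8.78 (adjusted p 0.0417), and a peak of FAM217B on the other strand covered its whole peak. PPP1R3C, also called protein targeting to glycogen, had the lowest fold enrichment of the 5, 4.39, and the smallest adjusted p, 5.01e-39. PPP1R3A, the subunit of striated muscle, and PPP1R3E were without a listed peak. The group's median best fold enrichment was 10.0, the highest median of a group with more than 2 genes with a peak.

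PP1 inhibitor genes code for small proteins such as inhibitor-2 (PPP1R2) and DARPP-32 (PPP1R1B) that block or restrain the PP1 catalytic subunit. Of 12 genes 1 had a peak (8.33%, exact 95% interval 0.211 to 38.5), beside 40.0% of all protein-coding genes. Among all genes of up to 10000 bases the share was 25.4%, but several inhibitor genes are longer, so that share is not matched in size. The gene with a peak was PPP1R14C, itself 107349 bases long. It codes for an inhibitor that acts when phosphorylated by protein kinase C. Its peak had a fold enrichment of 2.58 over 150 bases (adjusted p 0.00219). PPP1R1A, PPP1R1B, PPP1R1C, PPP1R2, PPP1R2B, PPP1R2C, PPP1R11, PPP1R14A, PPP1R14B, PPP1R14D and PPP1R17 had none. The median genomic length of the 12 inhibitor genes was 9666 bases, against 24170.5 over all protein-coding genes, and the part of length in the count was not tested.

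Genes of the myosin-targeting group had a peak in 3 of 5 cases (exact 95% interval 14.7 to 94.7, which includes the 40.0% of all genes). PPP1R12A codes for MYPT1, which directs PP1 to myosin light chain and, in mitosis, to Polo-like kinase. Its peak of 160763 bases had a fold enrichment of 10.7 and a p listed as 0, the smallest of the family. A second peak of 1046 bases followed after a gap of 89 bases, with 8.78 (adjusted p 0.00055). PPP1R16A reached 6.27 and PPP1R12C 2.51, whereas PPP1R12B and PPP1R16B had no listed peak. Among the remaining PP1 genes, PPP1R7 reached 8.78, and PPP1R10 and PPP1R18 6.27 each. The 3 peaks of PPP1R37 stood at 7.53 (adjusted p 4.9e-07), 2.07 (1.58e-13) and 2.82 (0.00589). The best value of PPP1R18 came from 360 bases with an adjusted p of 0.0912. PPP1R10 codes for PNUTS, a nuclear subunit, and its single peak had an adjusted p of 1e-31. The best value of PPP1R7, the gene of the conserved PP1 partner SDS22, came from 511 bases at its 5' end with an adjusted p of 0.142, and its other peak stood at 1.47. PPP1R21, PPP1R8 and PPP1R35 had the lowest best fold enrichments of this group, 2.02, 1.54 and 1.54. PPP1R8 codes for the nuclear subunit NIPP1, and PPP1R35 for a centriole protein. PPP1R13L, PPP1R27, PPP1R36 and PPP1R42 had no listed peak.

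**Figure D2:**
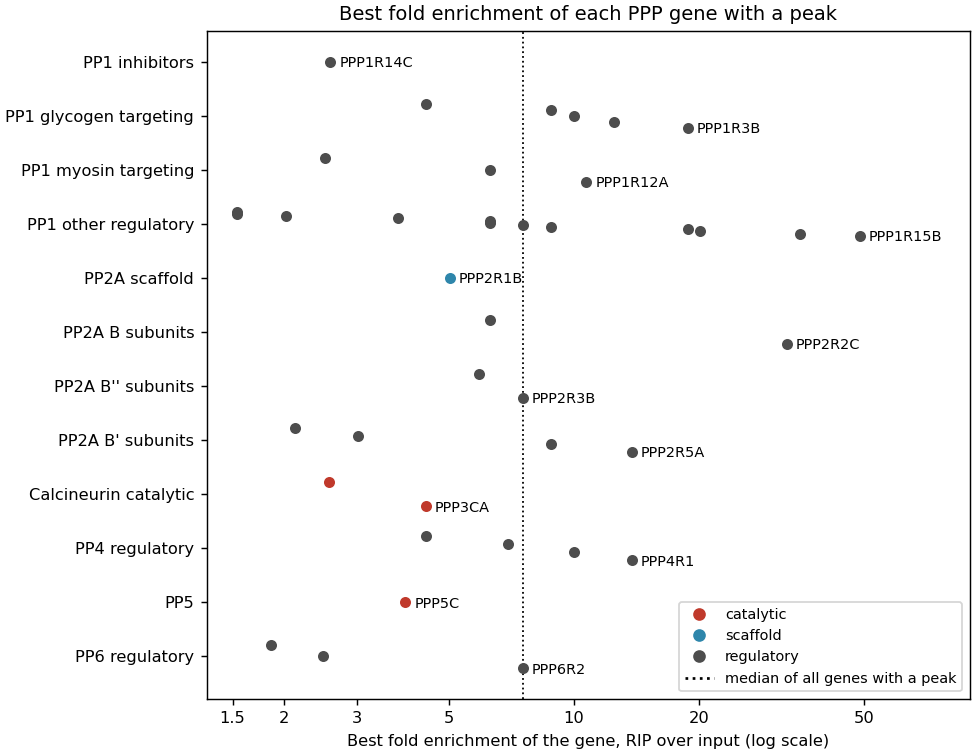
Best fold enrichment (RIP over input, log scale) of each of the 40 PPP genes with a peak, 1 point a gene, by subunit group; the gene with the largest value of each group is named, and the dotted line is the median over all genes with a peak, 7.53. The 3 catalytic genes lie between 2.56 and 4.39, while PPP1R15B, PPP1R26 and PPP2R2C lie above 30.

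PP2A genes had a peak in 9 of 16 cases (56.3%, exact 95% interval 29.9 to 80.2, which includes the 40.0% of all genes). All 9 were scaffold or regulatory genes, with a median best fold enrichment of 6.27. The B subunit gene PPP2R2C led at 32.6, in a single region that spanned 99.9% of the gene, chr4:6320578-6563600, with an adjusted p of 5.01e-78. PPP2R2D, whose B55-type subunit restrains mitotic entry when bound to PP2A, had 3 peaks of 6.27, 6.27 and 5.02. The first of them had an adjusted p of 5.01e-82, while the other two stood at 0.335 and 0.0912. PPP2R2A and PPP2R2B, the other B genes, were without a listed peak. The B' (B56) subunits hold PP2A at centromeres and kinetochores, and 4 of their 5 genes had a peak (exact 95% interval 28.4 to 99.5). PPP2R5A had 3, with fold enrichments of 13.8 (adjusted p 3.98e-27), 8.49 (1.58e-20) and 2.51 (1.48e-05). PPP2R5E reached 8.78 over 241 bases, with an adjusted p of 0.142. PPP2R5B and PPP2R5D had 3.01 (adjusted p 0.0776) and 2.12 (adjusted p 0.00191), and PPP2R5C had none. Of the B'' genes, PPP2R3A had 3 peaks, at 5.90 (adjusted p 1e-10), 5.02 (0.000141) and 3.76 (0.0617). PPP2R3B also had 3, at 7.53 (adjusted p 0.254), 3.76 (0.00661) and 5.65 (0.0417), and PPP2R3C had none. Thus 6 of the 9 PP2A genes kept a peak with an adjusted p under 0.05, and PPP2R1B, PPP2R5B and PPP2R5E did not.

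PP4 regulatory genes had a peak in 4 of 6 cases, and their catalytic gene PPP4C in none. PP4 acts in DNA repair and at centrosomes. PPP4R1 reached 13.8 with an adjusted p of 1e-150, PPP4R2 10.0 with 1e-240, and PPP4R3A 6.93 with 1e-106. Each of these 3 peaks covered at least 97.2% of its gene. PPP4R3B, the paralog of PPP4R3A, had the most peaks of the family, 6, and none exceeded 4.39. From the 3' end they stood at 4.39 (adjusted p 0.00794), 2.06 (0.00355), 1.63 (0.00316), 1.96 (5.01e-19), 1.78 (8.91e-08) and 1.70 (7.94e-16). PPP4R3C and PPP4R4 had no listed peak.

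PP6 regulatory genes had a peak in all 3 cases, with PPP6R2 at 7.53 (adjusted p 0.111), PPP6R3 at 2.48 (adjusted p 6.31e-19) and PPP6R1 at 1.86 (adjusted p 0.0166). PP6 is the phosphatase that switches off Aurora A at the spindle, and these subunits carry its SAPS domain. The peak of PPP6R2 with the smallest p had a fold enrichment of 1.79. The calcineurin regulatory genes PPP3R1 and PPP3R2 had no listed peak. The peaks of PPP1R3B and PPP1R16A were left out of the search for microRNA genes. Among the other peaks of the family, only the PPP6R1 regions held annotated microRNA genes, both on the strand of the host. MIR6804 lay in chr19:55230820-55239411 and MIR6802 in chr19:55239471-55242226. Their mature sequences are shown because their annotated positions lie between the ends of these peaks. Whether the recovered RNA held them was not tested. The seed (bases 2 to 8) is in capitals, and the sequences are from RefSeq on GRCh38.p14. The 4 seeds differ, and no microRNA was measured.
hsa-miR-6804-5p: uGAGGGUGucagcaggugacg
hsa-miR-6804-3p: cGCACCUGccucucacccacag
hsa-miR-6802-5p: cUAGGUGGggggcuugaagc
hsa-miR-6802-3p: uUCACCCCucucaccuaagcag

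Fold enrichment and p ordered the members differently. By p the family was led by PPP1R12A, PPP1R15B, PPP4R2, PPP1R26, PPP4R1, PPP1R18, PPP4R3A, PPP2R2D, PPP2R2C and PPP1R9A. PPP1R18 stood sixth there with a fold enrichment of 4.16 in that peak (adjusted p 1e-116). Of the 10 leading genes by fold enrichment, PPP2R5A, PPP1R3B, PPP1R13B and PPP1R3G had only the 15th, 18th, 20th and 27th smallest p. Of the 21 genes with 2 or more peaks, 10 had their largest fold enrichment in the peak with the smallest p. Within a gene the largest fold enrichment was up to 6.49 times the lowest in PPP1R15B, 5.97 times in PPP1R7 and 5.50 times in PPP2R5A. When the peak with the smallest p stood for each gene, the median over the 40 genes was 4.71, and over all genes with a peak 6.27.

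**Figure D3:**
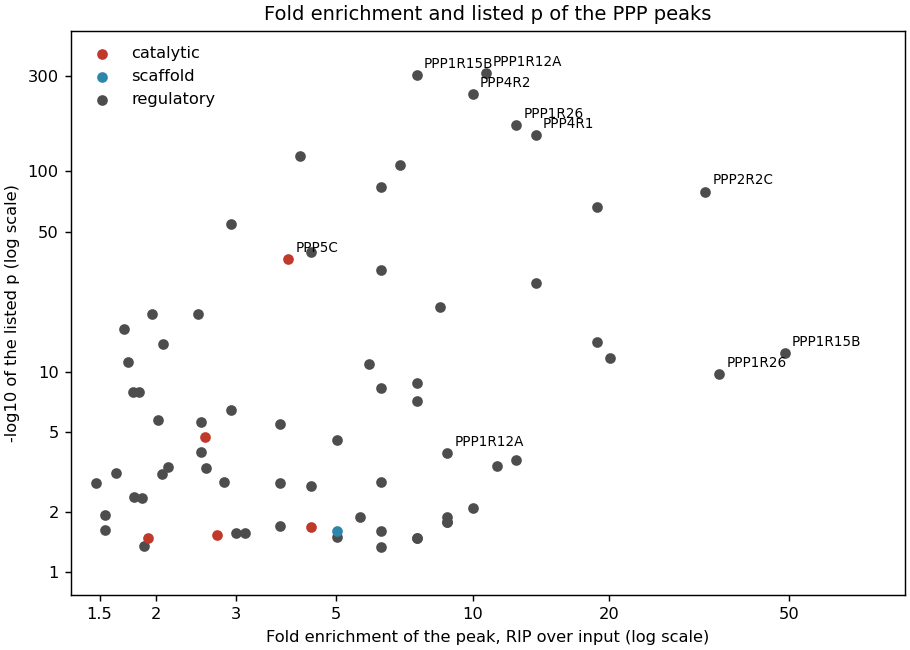
Fold enrichment (RIP over input) and -log10 of the listed p for the 72 PPP peaks, both on log scales, 1 point a peak, coloured by subunit class, with peaks of 7 genes named. PPP1R15B appears at fold enrichments of 48.9 and 7.53, and the PPP1R12A peak with a p listed as 0 is drawn at 310.

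Many fold enrichments fell on a fixed spacing. Of the 72 peaks, 36 were whole multiples of 1.2546 within the rounding of the list, as were 50.3% of all peaks. Their median fold enrichment was 7.53, against 2.52 for the 36 others. The best value of 24 of the 40 genes lay on the spacing, among them 9 of the 10 largest; the exception was PPP1R12A. The number of input reads behind a peak was not analysed here, so whether such values rest on few input reads was not tested. An adjusted p of 0.05 or more was listed for 17 of the 72 peaks (23.6%), close to the 25.6% of all peaks.

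The peaks took 2 forms along the genes. Of the 72, 20 (27.8%) spanned over 50% of their gene, against 23.8% of all peaks in genes found in the reference. At the other end, 19 peaks spanned at most 1000 bases. Of the 18 short peaks in genes longer than 10000 bases, 12 (66.7%) had their midpoint in the 10% of the gene nearest the 3' end and 3 (16.7%) in the 10% nearest the 5' end. Over all short peaks these shares were 60.9% and 12.9%. The short peaks of PPP3CB, PPP1R8 and PPP2R5E lay there, and those of PPP1R14C and PPP1R7 at the 5' end. Short peaks had a median fold enrichment of 2.58 and longer ones of 6.27, and 10 of the 19 had an adjusted p of 0.05 or more. Whether a peak covers an exon, an intron or the end of the coding sequence was not analysed here, as positions are genomic.

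**Figure D4:**
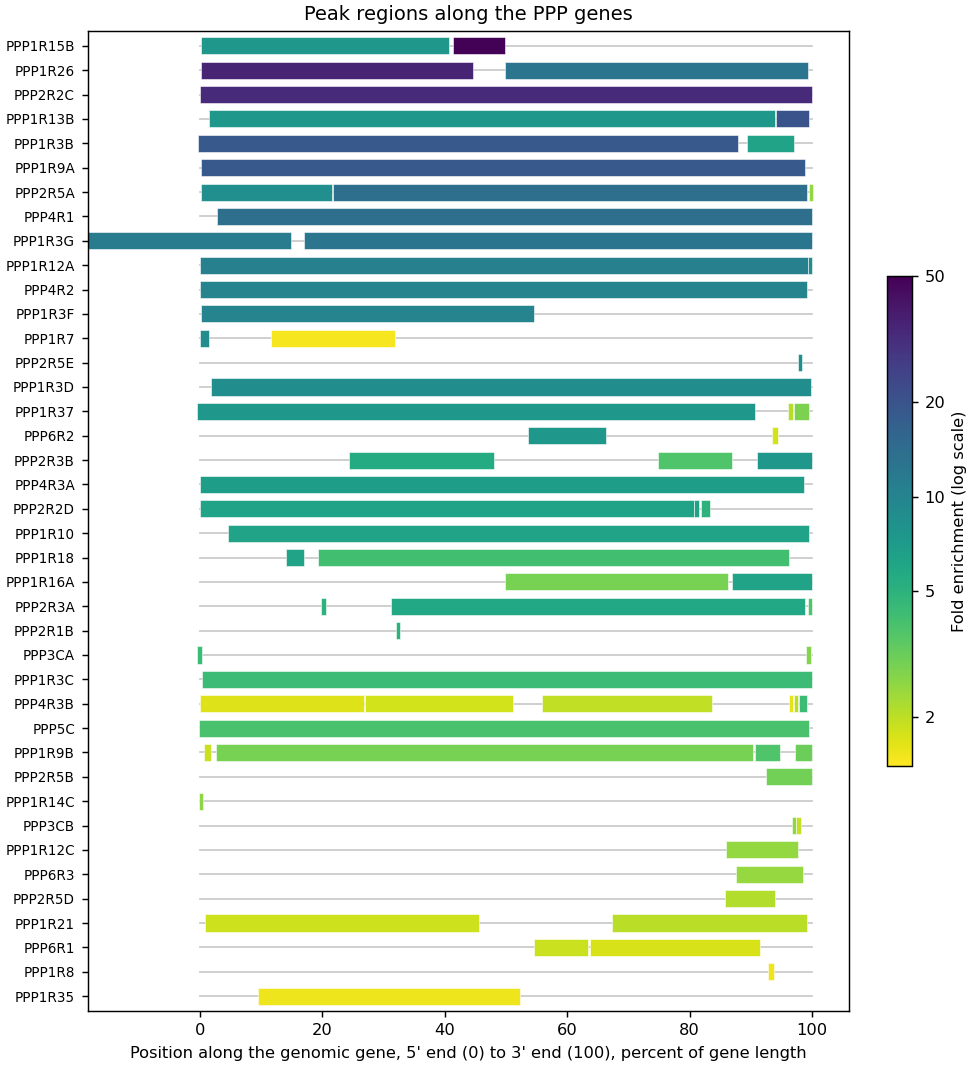
Peak regions of the 40 PPP genes along the genomic gene, from the 5' end (0) to the 3' end (100) in percent of gene length, with genes ordered by best fold enrichment and colour giving the fold enrichment (log scale); very narrow peaks are widened to be seen. In the upper rows the regions mostly run along the whole gene, and in the lower rows many lie at the 3' end.

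Neighbouring peaks of a gene were often separated by a short gap. Of 32 such pairs, 15 (46.9%) were under 200 bases apart, against 33.1% over all genes. Of these 15 gaps, 6 were 88 or 89 bases, 3 were 58 or 59 and 3 were 119. Counts of peaks per gene therefore include regions that nearly touch, as in PPP1R12A, PPP1R3G and PPP4R3B. The 5' edge of 13 peaks (18.1%) fell no more than 100 bases from the start of the gene, and the 3' edge of 14 (19.4%) as near to its end, against 17.3% and 14.4% of all peaks. For 3 peaks the region began more than 100 bases upstream of the annotated gene, by 760 bases in PPP1R3G, 752 in PPP3CA and 217 in PPP1R37.

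For 6 PPP genes, a RefSeq promoter window lay wholly inside a peak of the same gene and strand, 11 windows in all. Such a window is 250 bases before an annotated start and the first 30 transcribed bases. Of the 11, 10 belong to starts inside the gene's own bounds, where the peak covers gene body. The window of PPP1R3G belongs to the gene's outermost start. The windows of 4 genes of large fold enrichment are shown, for PPP2R2C the most upstream of its 4, from RefSeq on GRCh38.p14. Capitals mark GGAC, the core of the preferred m6A sequence, on the transcribed strand. The coordinates are chr9:135479532-135479811 (plus strand) for PPP1R26, chr4:6555586-6555865 (minus) for PPP2R2C, chr18:9614530-9614809 (minus) for PPP4R1 and chr6:5085091-5085370 (plus) for PPP1R3G.
PPP1R26: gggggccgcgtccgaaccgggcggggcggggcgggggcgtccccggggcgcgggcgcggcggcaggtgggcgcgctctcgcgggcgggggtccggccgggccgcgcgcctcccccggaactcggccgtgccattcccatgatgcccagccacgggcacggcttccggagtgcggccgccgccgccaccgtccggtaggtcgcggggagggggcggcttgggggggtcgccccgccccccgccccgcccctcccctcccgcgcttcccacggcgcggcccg
PPP2R2C: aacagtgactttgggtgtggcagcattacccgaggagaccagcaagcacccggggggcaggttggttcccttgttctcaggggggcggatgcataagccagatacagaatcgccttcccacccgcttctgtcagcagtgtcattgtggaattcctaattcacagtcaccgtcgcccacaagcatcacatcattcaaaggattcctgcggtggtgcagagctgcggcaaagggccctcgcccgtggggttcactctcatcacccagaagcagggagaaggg
PPP4R1: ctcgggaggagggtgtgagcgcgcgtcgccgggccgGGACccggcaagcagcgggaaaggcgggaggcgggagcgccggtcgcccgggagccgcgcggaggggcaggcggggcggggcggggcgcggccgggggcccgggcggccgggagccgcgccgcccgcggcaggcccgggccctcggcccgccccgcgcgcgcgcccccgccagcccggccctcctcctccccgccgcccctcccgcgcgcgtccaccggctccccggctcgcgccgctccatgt
PPP1R3G: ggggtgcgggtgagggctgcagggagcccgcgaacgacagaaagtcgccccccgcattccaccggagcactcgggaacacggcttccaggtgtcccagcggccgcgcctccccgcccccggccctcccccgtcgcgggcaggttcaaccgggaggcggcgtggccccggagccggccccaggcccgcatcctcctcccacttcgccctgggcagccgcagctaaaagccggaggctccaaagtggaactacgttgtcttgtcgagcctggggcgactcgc

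GGAC was found on the transcribed strand in 1 of the 11 windows, that of PPP4R1. It was found on that strand in 60.5% of the 86 windows of PPP genes and in 63.3% of all 35116 windows of the table, and on either strand in 85.3% of the latter. Chromosome 8 was left out of the 11 windows but not of the 86 or the 35116. It was the only motif searched. The 11 windows come from 6 genes, and 2 of those of PPP1R12A overlap, so the count is a description of few sequences. The windows of PPP1R26 and PPP4R1 were rich in G and C, at 85.0% and 87.1%, and that of PPP1R3G reached 72.5%. Those of PPP2R2C ranged from 53.6% to 78.2% and those of PPP1R12A from 27.1% to 71.1%, and the window of PPP2R5A was at 33.2%.

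Regions of other genes overlapped 10 of the 72 peaks, in 8 genes (13.9% of peaks, against 18.1% of all). In 7 of these genes the other peak lay on the opposite strand, as for PASK beside PPP1R7 and FAM217B beside PPP1R3D. The exception was PPP1R37, whose 3 peaks all lay within 1 peak of the kinase gene MARK4 on the same strand, chr19:45079288-45304353, with a fold enrichment of 22.6. Which of the 2 genes the reads of PPP1R37 came from cannot be told apart from this list. Antisense genes that bear PPP names had peaks of their own and are not members: PPP1R26-AS1 with a fold enrichment of 17.6, and PPP3CB-AS1 with 9.31 and 5.65. The 2 peaks of PPP3CB-AS1 lay at the 5' end of PPP3CB, while those of PPP3CB itself lay near its 3' end.

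Other genes that regulate these phosphatases under names of their own had a peak in 34 of 52 cases (65.4%, beside 40.0% of all genes), with a median best fold enrichment of 8.16. For PP1 it was 18 of 23, led by KNL1, the kinetochore scaffold that recruits PP1, at 25.1, and AUTS2 at 23.8. CDCA2 (Repo-Man), which brings PP1 to chromatin at mitotic exit, had 4 peaks of at most 2.38. For PP2A it was 11 of 21, led by ANKLE2 at 16.3, which acts on PP2A in rebuilding the nuclear envelope, and STRIP2 at 12.5. SGO1 (shugoshin), which holds PP2A with B' subunits at centromeres, reached 10.0. MASTL, the kinase that shuts off PP2A with B subunits in mitosis, stood at 2.30, and its substrates ENSA and ARPP19 had no listed peak. Nor had PTPA, the activator of PP2A, or CIP2A, its inhibitor in cancer cells. For PP4, PP6 and calcineurin it was 5 of 8, led by the calcineurin inhibitors CABIN1 at 21.3 and RCAN1 at 11.3. In the peak with the smallest p, KNL1 stood at 6.23, ANKLE2 at 8.78, STRIP2 at 6.78 and SGO1 at 5.02. AUTS2, CDCA2, MASTL, CABIN1 and RCAN1 had the same value in that peak. The median genomic length of the 52 genes was 50386 bases, against 24170.5 over all protein-coding genes, and the part of length was not tested.

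The same direction of counts was seen in a wider set. It shares genes with the list above, among them KNL1, CDCA2 and AKAP11, so the counts are not independent. RefSeq lists a PPP1R number among the older symbols of 148 protein-coding genes that now bear other names, and 96 of these had a peak (64.9%). Among other phosphatase families, 9 of 12 metal-dependent PPM1 genes and 12 of 17 PTPN genes had a peak, above the 40.0% of all genes. With an adjusted p under 0.05 the counts were 4 of 12 PPM1 genes and 11 of 17 PTPN genes, beside 34.0% of all genes. For 11 of 23 dual-specificity DUSP genes and 9 of 20 receptor PTPR genes, the exact 95% intervals (26.8 to 69.4 and 23.1 to 68.5) include 40.0%. Median genomic length was 76873.5 bases in the wider set, 43381 in PPM1, 90972 in PTPN, 189578.5 in PTPR and 13627 in DUSP. Over all protein-coding genes it was 24170.5, and the part of length was not tested. In these counts of listed peaks at any adjusted p, a share above the background was thus not particular to the PPP genes.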

How the data were processed

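The data are 1 peak list that the authors made from 1 YTHDF3 RIP library and 1 input library, told apart by title. RNA was fragmented and copied with random hexamers, with molecular identifiers added, per the labels' protocols. Per the submitters' processing notes the build is hg38; the aligner, the peak caller and its thresholds are not stated there. The deposited columns are, per the file headers, the fold enrichment (RIP to input ratio), the p-value, the adjusted p-value and the length of every peak. No counts were used, so depth is unknown. Depth therefore sets no interval here, and a fold over a low input cannot be told from a precise one.

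Starts were taken as counted from 0, since 786 lay 1 below their gene's start in the RefSeq table (GRCh38.p14) and 68 equalled it, and are printed counted from 1. Names were matched within 100000 bases on the same chromosome, 16536 peaks by symbol, 749 by an older symbol and 23 date-like names by position; 1158 stayed unmatched, none of them a PPP gene. RefSeq promoter windows were found for 60 of the 76 genes. Python 3.11.15, pandas 2.3.3 and scipy 1.17.1 were used, and matching, counting and the spacing search were tested on simulated data.

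The members, groups and lists were chosen with earlier results of these data known. Values are given in full for catalytic and scaffold genes, the 10 leading genes by fold enrichment and by p, and the 5 with the most peaks. The wider set of older PPP1R symbols, the other phosphatase families, the size classes, gaps and promoter windows were chosen after seeing the data. The alternatives tried were stricter peaks, overlaps, names, and other summaries per gene. No sequence from chromosome 8 is shown, or counted among the promoter windows inside peaks or the microRNAs.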

Additional observations from a re-analysis of the deposited data

How the results depend on the processing

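When peaks below the median fold enrichment were set aside, 25 PPP genes had a peak in place of 40, and with only the 10% of peaks with the smallest p, 12. No catalytic gene (0 of 11) had a peak under either setting, against 3 otherwise. Of the PP2A genes, 2 had one among the 10% of peaks with the smallest p, against 9. In these settings fewer peaks are counted by construction. An adjusted p under 0.05 left 34 PPP genes, 2 catalytic genes and 6 PP2A genes. Leaving out peaks that overlap another gene's peak left 37 PPP genes, and 39 where only overlaps on the same strand counted. Pseudogenes and older symbols added none. The median best fold enrichment stayed between 4.71 and 8.78 under its 8 alternatives, and the share of short peaks near the 3' end between 63.2% and 66.7% under 2 alternatives chosen after seeing the data. No paired analysis was possible because each group has 1 library and no test was made. With no counts or replicates, a fold enrichment has no error here, and a gene without a peak may be weakly expressed, weakly recovered or below the authors' threshold.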
